A study of Mus musculus with 5 samples.

Results

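The ES-like cells that the labels call reverted were compared with the embryonic stem (ES) cells from which their line started, to describe which transcripts stayed different after a passage through germ-cell-like spheres. Both members were chosen by their labels, 2 of 5 one-colour expression arrays: the reverted cells of line 21, and the line 21 ES cells that received no 4-hydroxytamoxifen (4OHT). All 5 cultures derive from the male ES line E14tg2a of mouse strain 129 and express myr-Akt-Mer, membrane-anchored Akt joined to a hormone-binding domain that 4OHT activates, so the starting ES cells carry the transgene too, in its unstimulated state. The other cultures were line 21 ES cells with 1 µM 4OHT, and spheres made with 4OHT on OP9 stromal cells from line 21 and from a separate line, 42. The spheres were induced after 3 days of 4OHT, passed every 4 days onto fresh OP9 cells, and freed of OP9 cells by plating for 30 min.

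The labels describe the reverted cells in more than one way. Their cell type field says that they were reverted from the line 21 germ-cell-like spheres, whereas their description and source name speak of 4OHT treatment on mouse embryonic fibroblasts (MEFs), in the description a transient one. Whether 4OHT was present at harvest is a detail not given in the sources used here, and was not assumed. The ES cells were grown without feeders, so the comparison sets cells from a MEF culture against feeder-free cells. Each group is 1 array of 1 line, so no difference below has a replicate check, and differences are given without p-values. A limma fit that borrowed the spread between the sphere lines, described with the processing alternatives, called no gene after adjustment for the number of genes.

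Primordial germ cells are the embryonic precursors of eggs and sperm. They share much of the transcription factor network of ES cells, and in culture they can turn into ES-like cells, a conversion that Akt signalling promotes. In the embryo they erase the parental methylation marks of imprinted genes, which in other cells are read from only the maternal or only the paternal copy. Naive ES cells are held in their state by leukaemia inhibitory factor and by transcription factors such as Nanog, Klf4, Tbx3 and Esrrb. They silence Klf4, Tbx3 and Esrrb when they move towards the primed epiblast.

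The values are deposited intensities on a linear scale with a median of about 50 on every array. Differences are in log2(intensity + 1) after each array was centred on its median, so 1 unit is 2-fold, and dim genes are understated. A gene was compared if both arrays listed a value and at least 1 reached its 40th percentile, at an intensity of about 29. A gene below that level on 1 array entered only through the other, so counts of dim lists partly follow from the filter. Intensities are not compared between genes. In these bulk RNA samples, fewer cells of a type and less RNA per cell cannot be told apart.

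Of 9939 genes compared, 515 were at least 2-fold higher in the reverted cells (5.18%) and 629 at least 2-fold lower (6.33%), together 11.5%. Against both ES arrays at once, 361 of 10211 genes were higher (3.54%) and 476 lower (4.66%). For scale, the 2 ES arrays differed from each other by 2-fold in 251 genes higher (2.55%) and 236 lower (2.4%) with 4OHT, of 9852. Over the 10589 genes measured on all 5 arrays, log2 intensities of reverted and starting ES cells correlated across genes with r = 0.957. The corresponding r was 0.978 between the ES arrays, 0.922 between reverted cells and line 21 spheres, and 0.901 between starting ES cells and line 21 spheres. Genes are not independent replicates, and these pairs share arrays, so the r values describe the order of likeness only. The count of higher genes fell to 339 with a pseudocount of 16 and to 334 with a filter at the 60th percentile, and without centring the counts were 633 higher and 529 lower.

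**Figure D1:**
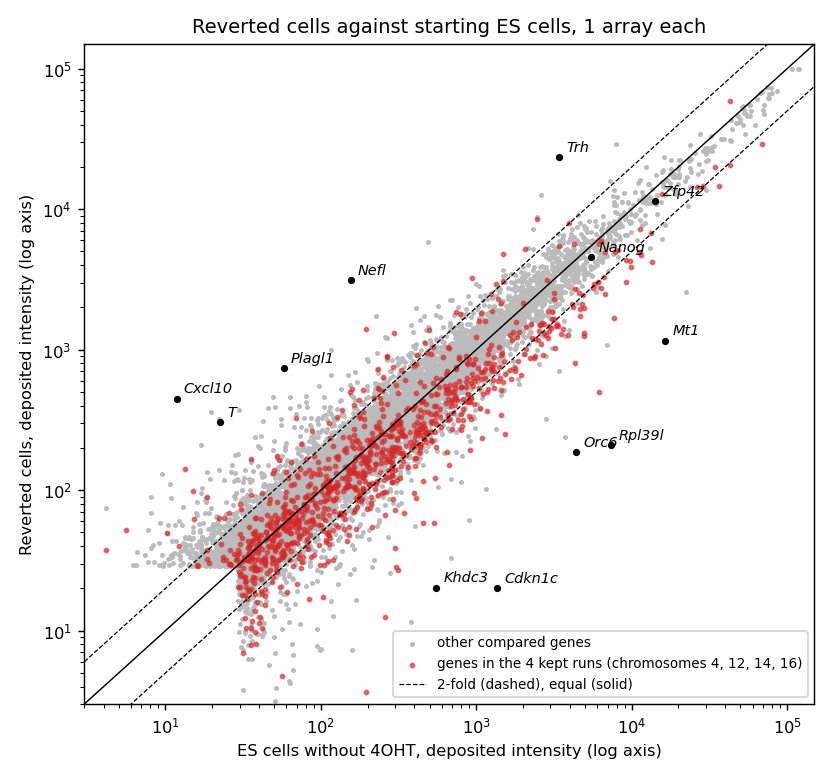
Deposited intensity of each compared gene in starting ES cells (x axis) and in reverted cells (y axis), both on log axes, 1 array each. The dashed lines mark 2-fold. Genes in 4 chromosomal runs that are described in the text are red and lie mostly below the solid line of equality, and 12 genes are named.

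Several ES cell markers that were low in spheres were within 2-fold of starting ES cells on the reverted array. Nanog, a core pluripotency factor, was not low in spheres: it read 5479.7 in starting ES cells, 3839 with 4OHT, 5523 and 4003 in spheres of lines 21 and 42, and 4538 in reverted cells and differed by -0.37, within 2-fold of starting ES cells on every array. Zfp42, a zinc finger marker of naive ES cells, read 14177 in the starting cells, 15996 after 4OHT, 86.1 in line 21 spheres, 1029.8 in line 42 spheres and 11370.2 after reversion (-0.42 in log2), low on both sphere arrays and near the ES level again on the reverted array. Klf4 read 1336 in reverted cells, against 1573 in starting ES cells, 1090.4 with 4OHT and 134 and 97.4 in spheres of lines 21 and 42 (-0.33 in log2). Klf4 too was low on both sphere arrays and within 2-fold of the starting cells after reversion. Tbx3, a T-box factor of the same network, read 322 in starting ES cells, 659.9 with 4OHT, 14.2 and 15.9 in spheres of lines 21 and 42, and 544 in reverted cells (0.65 in log2). Nr0b1, a nuclear receptor of the network, read 4210.2 in the starting cells, 4854 after 4OHT, 106 in line 21 spheres, 104 in line 42 spheres and 3105 after reversion (-0.54 in log2). Both were dimmest in the spheres. Tdgf1, a Nodal co-receptor abundant in ES cells, was within 2-fold too, at 17604 in starting and 17662 in reverted cells. Esrrb was dim on all arrays and supports no statement here.

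Part of the pluripotency set stayed lower. For all lists, the shares to compare with are the 5.18% higher and 6.33% lower genes among all compared genes. Of 17 compared core pluripotency genes, 0 were 2-fold higher and 4 were 2-fold lower (23.5%), with a list median of -0.46 against 0.00 for all compared genes. The 4 were Dppa4, Dppa2, Fgf4 and Fbxo15. Dppa4, a chromatin-associated factor of pluripotent and germ cells, read 1733 in reverted cells, against 4619 in starting ES cells, 4803 with 4OHT and 7.65 and 499.6 in spheres of lines 21 and 42 (-1.51 in log2). Its neighbour and partner Dppa2 read 760.4 in starting ES cells, 1562 with 4OHT, 11.6 and 221 in spheres of lines 21 and 42, and 315 in reverted cells (-1.37 in log2). Both had been near the floor in line 21 spheres and climbed back to less than the level of either ES array. Fgf4, the growth factor that primes ES cells for differentiation, read 278 in the starting cells, 362 after 4OHT, 18.3 in line 21 spheres, 7.66 in line 42 spheres and 124 after reversion, also between spheres and ES cells. Fbxo15, an F-box gene used as an ES reporter, differed by -1.13. Outside the chromosomal runs described below, 2 core genes were lower and the list median was -0.42.

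Among 21 naive genes, 6 were 2-fold lower (28.6%) and 1 was higher, with a median of -0.33. Jam2, a junctional adhesion molecule, read 193 in reverted cells, against 918 in starting ES cells, 1776 with 4OHT and 28.7 and 33.2 in spheres of lines 21 and 42 and differed by -2.34. Tcl1, a co-activator of Akt that ES cells use, read 928 in starting ES cells, 1146 with 4OHT, 40.9 and 433 in spheres of lines 21 and 42, and 321 in reverted cells (-1.63 in log2). Mras, a small GTPase, read 737 in the starting cells, 792 after 4OHT, 33.6 in line 21 spheres, 24.5 in line 42 spheres and 259.7 after reversion (-1.60 in log2). These 3 were near the filter in line 21 spheres and came part of the way back in reverted cells. The rest were Fgfr2, Fgf4 and Pecam1, at -1.36, -1.26 and -1.15. Dppa3 (Stella), which protects maternal methylation in the zygote and marks germ cells, was the exception and read 1626 in reverted cells, against 435 in starting ES cells, 171 with 4OHT and 223 and 9198 in spheres of lines 21 and 42 (1.80 in log2). Its reverted level was above both ES arrays and the line 21 spheres, and below line 42 spheres.

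Of 16 primed epiblast genes, 2 were higher (12.5%, where 5.18% of all genes were) and 1 was lower, with a median of 0.35. Fgf5, the classical marker of the primed epiblast, read 23.9 in starting ES cells, 17.5 with 4OHT, 232 and 161 in spheres of lines 21 and 42, and 119 in reverted cells (2.17 in log2) and lay between ES cells and spheres. Otx2, a homeobox factor that drives exit from the naive state, read 681 in the starting cells, 263 after 4OHT, 634 in line 21 spheres, 146 in line 42 spheres and 1549 after reversion (1.08 in log2) and was highest on the reverted array. Dnmt3a, a de novo DNA methyltransferase, was the lower one at -1.18. In the LIF, BMP and Nodal list, 1 of 21 was higher and 2 lower: Id4, an inhibitor of helix-loop-helix factors, at 2.38, and Skil and Bmp4 at -1.63 and -1.06.

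Differences from starting ES cells lay together along chromosomes. The median difference of all genes of a chromosome was between -0.04 and 0.08 on 16 chromosomes, and was -0.35 on chromosome 4, -0.09 on chromosome 12, 0.25 on chromosome 14 and -0.63 on chromosome 16. To place these shifts, runs were sought in the difference of line 21 spheres from ES cells with 4OHT, which shares no array with reverted minus starting ES cells. A run was at least 41 neighbouring genes whose running median over 41 genes was 0.3 or more in size. There were 6 runs, and 4 of them read 0.3 or more the same way in the reverted cells. In gene order they reach or nearly reach the end of their chromosome's gene list.

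**Figure D2:**
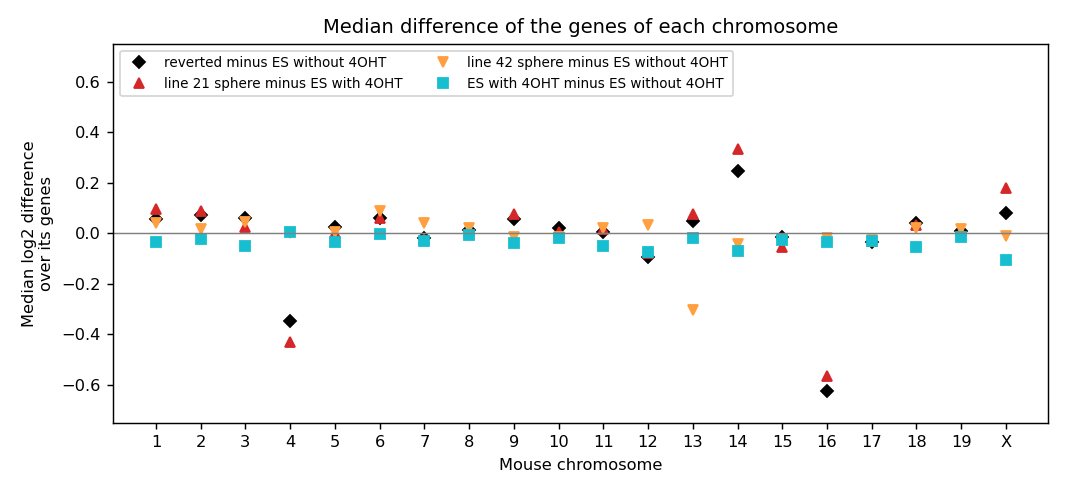
Median log2 difference over the genes of each mouse chromosome (x axis) for 4 pairs of arrays, 1 symbol each. Reverted cells and line 21 spheres both stand below 0 on chromosomes 4 and 16 and above 0 on chromosome 14. Line 42 spheres stand lowest on chromosome 13.

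On chromosome 4, the run held 423 genes from Bsnd to Agrn. Its median was -0.75 in the line 21 spheres and -0.65 in the reverted cells, where 372 of the 423 genes (87.9%) were below starting ES cells and 126 were 2-fold below. On chromosome 16, the run held 309 of the 322 ordered genes, from Vasn to Ripk4. Its median was -0.57 in the spheres and -0.64 in the reverted cells, with 278 genes (90.0%) lower and 92 of them 2-fold lower. On chromosome 12, 128 genes from Arel1 to Sp4 had medians of -0.51 and -0.64, and 108 of them (84.4%) were lower in reverted cells. The run on chromosome 14 went the other way: 176 genes from Nop9 to Tmtc4 had medians of 0.60 and 0.55, and 139 (79.0%) were higher in reverted cells. On a linear scale these medians are ratios of 0.638, 0.644, 0.643 and 1.47 to starting ES cells, in the order given.

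The shifts of these runs were seen on the line 21 sphere and reverted arrays. Reverted cells minus line 21 spheres had medians of 0.10, -0.01, -0.00 and 0.08 in these 4 runs and 0 runs anywhere by the same rule. The ES cells with 4OHT, set against starting ES cells, had medians of 0.01, -0.04, -0.05 and -0.04, and again 0 runs. Line 42 spheres minus starting ES cells had -0.05, -0.00, -0.01 and -0.15 in them, and a single run of their own, 158 genes on chromosome 13 with a median of -0.86. The last 3 differences share arrays with those that chose or read the runs. The remaining 2 of the 6 runs, on the first part of chromosome 4 and on chromosome 12 from Rsad2 to Ralgapa1, had medians of 0.41 and 0.44 in spheres and of 0.16 and -0.02 after reversion. The arrays measured RNA only.

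**Figure D3:**
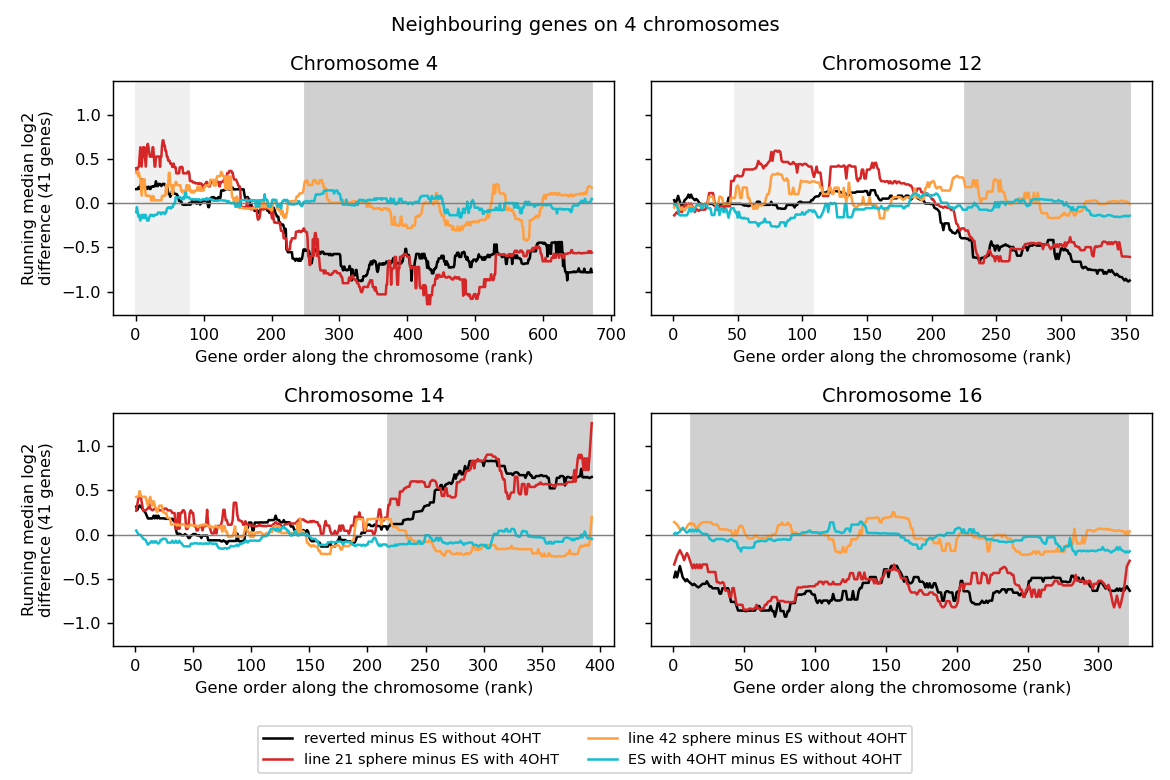
Running median of the log2 difference over 41 genes (y axis) along the gene order of 4 chromosomes (x axis, rank). Grey marks the 6 runs found in line 21 spheres, dark where reverted cells kept the shift. In the dark spans the black line of reverted cells lies on the same side of 0 as the red line of line 21 spheres, and the lines of line 42 spheres and of ES cells with 4OHT reach from -0.43 to 0.27 and from -0.23 to 0.15.

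Much of the lower expression fell inside these runs. The 3 lower runs held 815 compared genes, of which 247 were 2-fold lower (30.3%) and 6 were 2-fold higher. They made up 39.3% of all lower genes. The chromosome 14 run held 169 compared genes, 48 of them 2-fold higher (28.4%) and 3 lower. Outside all 4 runs, 461 of 8955 genes were 2-fold higher (5.15%) and 379 were 2-fold lower (4.23%), so the excess of lower over higher genes was not seen there. The runs were kept by their median in this same difference. The shares inside and outside them therefore follow in part from that choice and only describe where lower genes lie.

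Named genes show what the runs contain. The chromosome 16 run held Dppa2, Dppa4 and Jam2, already described. It also held Rpl39l, a germ-line paralog of a ribosomal protein whose probe may also read that paralog. Rpl39l read 208 in reverted cells, against 7387 in starting ES cells, 11706 with 4OHT and 33.7 and 1528 in spheres of lines 21 and 42 (-5.24 in log2). Pla1a, a phospholipase, read 196 in starting ES cells, 359.9 with 4OHT, 112 and 95.2 in spheres of lines 21 and 42, and 3.68 in reverted cells (-5.49 in log2) and was lowest on the reverted array. Adprh, which removes ADP-ribose from arginine, read 6191 in the starting cells, 8492 after 4OHT, 907 in line 21 spheres, 2495 in line 42 spheres and 501 after reversion (-3.72 in log2). Ppil2, a cyclophilin-like protein, and Hmox2, the constitutive haem oxygenase, differed by -3.59 and -3.28. Gsk3b, the kinase that Akt inhibits, lies there too and read 12.2 in reverted cells, against 32.6 in starting ES cells, 34.2 with 4OHT and 9.57 and 24.3 in spheres of lines 21 and 42 (-1.44 in log2).

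Genes picked from the chromosome 4 run by name included Eno1, Slc2a1 and Cdc20. Eno1, a glycolytic enolase, read 28813 in starting ES cells, 18643 with 4OHT, 10634 and 32015 in spheres of lines 21 and 42, and 14713 in reverted cells (-1.07 in log2). Slc2a1, a glucose transporter, read 3186 in the starting cells, 2611 after 4OHT, 1241 in line 21 spheres, 2249 in line 42 spheres and 1667 after reversion (-1.03 in log2). Cdc20, an activator of the anaphase-promoting complex, read 2485 in reverted cells, against 6741 in starting ES cells, 7607 with 4OHT and 1678 and 5432 in spheres of lines 21 and 42 (-1.54 in log2). All 3 were lower than starting ES cells by 2- to 3-fold. The histone demethylase Kdm1a and the fatty acid binding protein Fabp3 in the same run differed by -1.22 and -2.31, and the Wnt ligand Wnt4 was among its few higher genes, at 2.55. The chromosome 12 run held Tcl1, Akt1 itself (-1.01), the imprinted RNA Meg3, and Ak7, an adenylate kinase, which differed by -4.37. The chromosome 14 run held Nefl and Nefm, the light and medium neurofilament chains, and Loxl2, a collagen-crosslinking oxidase, which differed by 2.91.

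To ask how much of the sphere programme remained, genes were chosen for a 2-fold difference of line 21 spheres from the 4OHT-treated ES cells, and were then read as reverted minus starting ES cells. The choice and the reading share no array. Line 21 spheres were 2-fold higher in 1294 of 10208 genes (12.7%) and lower in 1406 (13.8%). Of the 1281 sphere-high genes that could be read, 218 were still 2-fold higher in reverted cells (17.02%) and 31 were 2-fold lower (2.42%), against 4.54% higher among all 10186 readable genes. Of 1398 sphere-low genes, 354 were still 2-fold lower (25.3%) and 38 were higher (2.72%), against 6.07% lower among all. Most sphere differences were no longer 2-fold. The median reading was 0.37 for sphere-high and -0.50 for sphere-low genes, where the median at choice had been 1.46 and -1.54. Outside the 4 runs, 187 of 1201 sphere-high genes (15.6%) and 202 of 1085 sphere-low genes (18.6%) were still 2-fold apart the same way. Among all 9184 readable genes there, 4.48% were 2-fold higher and 4.06% lower.

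When genes were chosen on line 42 spheres, 140 of 978 high genes (14.3%) and 200 of 1129 low genes (17.7%) were still 2-fold the same way. Among all 10146 readable genes, 4.28% were 2-fold higher and 6.24% lower. Of the 978 high and 1129 low genes, 4.60% and 5.23% were 2-fold the opposite way. Among the genes with the largest remaining excess, Nefl and Plagl1, described below, exceeded line 21 spheres by 3.65 and 1.94 in log2. The others were of 2 kinds. S100a4, a calcium-binding protein of motile cells, read 19.6 in starting ES cells, 10.5 with 4OHT, 279.6 and 8.69 in spheres of lines 21 and 42, and 361 in reverted cells (4.03 in log2). The matrix proteoglycan Bgn read 9.50 in the starting cells, 10.5 after 4OHT, 143 in line 21 spheres, 10.6 in line 42 spheres and 129.6 after reversion (3.54 in log2). Both were high in line 21 spheres and in reverted cells alone, and line 42 spheres stood near the ES level. Nefm read 143 in reverted cells, against 13.3 in starting ES cells, 10.2 with 4OHT and 97.98 and 11.3 in spheres of lines 21 and 42 (3.22 in log2), in the same order.

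Efemp1, an extracellular matrix glycoprotein, read 22.1 in starting ES cells, 16.2 with 4OHT, 459 and 185 in spheres of lines 21 and 42, and 319 in reverted cells (3.69 in log2). Chst1, a sulfotransferase, read 17.01 in the starting cells, 18.8 after 4OHT, 414 in line 21 spheres, 496 in line 42 spheres and 211 after reversion (3.46 in log2). Cd59a, a membrane inhibitor of complement, read 1000.1 in reverted cells, against 116 in starting ES cells, 183 with 4OHT and 2813 and 3678 in spheres of lines 21 and 42 (3.004 in log2). For these 3 the spheres of both lines were high, and reverted cells lay between them and the ES cells, except that Efemp1 was higher in reverted cells than in line 42 spheres. Alox15, a lipoxygenase, differed by 3.16 and was also higher on both sphere arrays than on the ES arrays.

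Among the genes that stayed low, Khdc3, a component of the maternal complex of the oocyte, read 551 in starting ES cells, 294 with 4OHT, 10.8 and 9.54 in spheres of lines 21 and 42, and 20.2 in reverted cells (-4.80 in log2). Rpp40, a subunit of ribonuclease P, read 895 in the starting cells, 802 after 4OHT, 217 in line 21 spheres, 606 in line 42 spheres and 61.1 after reversion (-3.95 in log2). The probe of the ribosomal protein gene Rpl10, which may also read related sequences, differed by -4.04. Other genes that were dim after reversion had no listed value in line 21 spheres, so whether they were low there is not known. Llgl2, a cell polarity protein, read 11.6 in reverted cells, against 383 in starting ES cells, 406 with 4OHT and no listed value in spheres of lines 21 and 42 (-5.03 in log2). The tumour suppressor Rassf1 and the defensin-like gene listed under the older symbol Defcr3 differed by -3.70 and -4.38.

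Other sphere genes had gone back. Fabp4, the adipocyte fatty acid binding protein, read 4.99 in starting ES cells, 4.63 with 4OHT, 183 and 143 in spheres of lines 21 and 42, and 6.07 in reverted cells. Pygl, the liver glycogen phosphorylase, read 9.41 in the starting cells, 13.02 after 4OHT, 334 in line 21 spheres, 364 in line 42 spheres and 8.42 after reversion. Both were below the filter in ES and reverted cells, so no difference was computed. Fabp4 is also on the list of OP9 stroma and adipocyte markers, and the part of OP9 RNA in its sphere level was not tested. Mogat2, an enzyme of triglyceride synthesis that was bright in spheres, read 194 in reverted cells, against 78 in starting ES cells, 60.5 with 4OHT and 2967 and 3511 in spheres of lines 21 and 42 and remained 2-fold above ES cells at 1.21. Over the lipid and glycogen storage list, 3 of 22 compared genes were higher and 1 was lower, with a median of 0.08. In the glycolysis and hypoxia list, 2 of 29 were higher and 4 were lower, 2 of the 4 being Eno1 and Slc2a1 of the chromosome 4 run. Adm, a peptide hormone induced by hypoxia, read 13.2 in starting ES cells, 27.4 with 4OHT, 279 and 315 in spheres of lines 21 and 42, and 37.6 in reverted cells (1.35 in log2).

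Imprinted genes were among the largest differences. Of 12 compared maternally expressed genes, 4 were 2-fold lower (33.3%, against 6.33% of all genes) and 1 was higher, and the list median was -0.06, a value that was above 0 without centring and outside the 4 runs. Of 13 paternally expressed genes, 6 were higher (46.2%, against 5.18%) and 0 lower, with a median of 0.84, and none of them lies in the 4 runs. The 2 lists were chosen from textbook knowledge with earlier results of these arrays known.

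Cdkn1c, a growth-restraining inhibitor of cyclin-dependent kinases, showed the largest fall of all compared genes whose brighter array reached 100. It read 1367 in the starting cells, 3171 after 4OHT, no listed value in line 21 spheres, 2790.4 in line 42 spheres and 19.99 after reversion (-6.13 in log2). The 2 ES arrays and line 42 spheres were bright, and the reverted array was under the filter. Phlda2, a restrainer of placental growth from the same imprinted cluster, read 1071 in reverted cells, against 6983 in starting ES cells, 9049 with 4OHT and 583 and 5123 in spheres of lines 21 and 42 (-2.80 in log2). Slc22a18, a transporter of that cluster, differed by -1.45, from dim levels. Phlda2 and Slc22a18 were low in line 21 spheres and reverted cells, and Cdkn1c had no listed value in the former. None of the 3 was that low in line 42 spheres.

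Meg3, a long non-coding RNA of the chromosome 12 imprinted cluster, read 545 in starting ES cells, 755 with 4OHT, 83.9 and 820.3 in spheres of lines 21 and 42, and 122 in reverted cells (-2.24 in log2). It lies in the chromosome 12 run. H19, the long non-coding RNA next to Igf2, went the other way and read 50.6 in the starting cells, 87.8 after 4OHT, 154 in line 21 spheres, 1020.3 in line 42 spheres and 393 after reversion (2.83 in log2), higher on the reverted array than in line 21 spheres and highest in line 42 spheres. Igf2 itself was within 2-fold, at 143 in starting and 195 in reverted cells, while its level in ES cells with 4OHT was 705.

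Among paternally expressed genes, Plagl1, a zinc finger factor that acts on other imprinted genes, read 740.4 in reverted cells, against 57.7 in starting ES cells, 45.1 with 4OHT and 186 and 186 in spheres of lines 21 and 42 (3.56 in log2) and was highest in reverted cells. Peg3, a zinc finger protein of growth and maternal behaviour, read 37.9 in starting ES cells, 18.9 with 4OHT, 833 and 136 in spheres of lines 21 and 42, and 241 in reverted cells (2.53 in log2). Ndn, a growth suppressor of neurons, read 84.6 in the starting cells, 54.7 after 4OHT, 648 in line 21 spheres, 141 in line 42 spheres and 290.3 after reversion (1.67 in log2). Peg3 and Ndn were highest in line 21 spheres, with reverted cells between them and the ES cells. Mest, a hydrolase-like gene, read 464 in reverted cells, against 104 in starting ES cells, 113 with 4OHT and 359.8 and 42.8 in spheres of lines 21 and 42 (2.05 in log2), highest on the reverted array. Sgce, a sarcoglycan, read 133 in starting ES cells, 394 with 4OHT, 188 and 70.2 in spheres of lines 21 and 42, and 429 in reverted cells (1.58 in log2), and its reverted level was close to that of ES cells with 4OHT, so it is no difference from both ES arrays. Magel2 was dim and differed by 1.43. Impact and Snrpn, also paternally expressed, were below the 2-fold rule at 0.84 and 0.66.

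**Figure D4:**
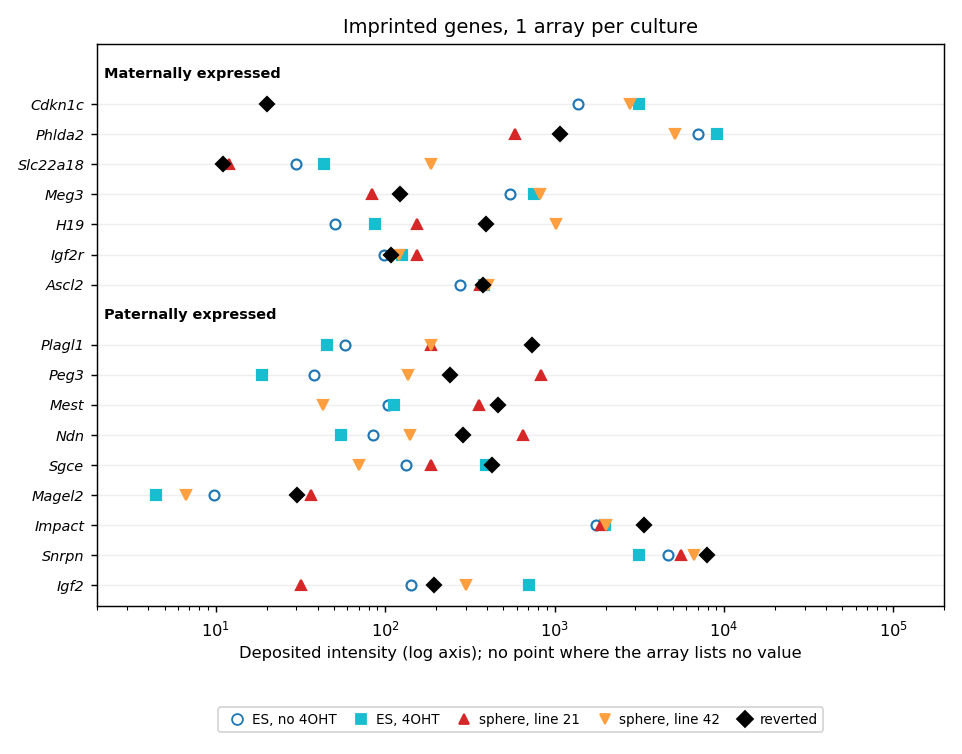
Deposited intensity (x axis, log) of 16 imprinted genes (y axis) on the 5 arrays, 1 symbol per array, with no symbol where an array lists no value (Cdkn1c in line 21 spheres). Reverted cells (black) lie left of both ES arrays for Cdkn1c, Phlda2, Slc22a18 and Meg3, and right of both for H19, Plagl1, Peg3, Mest, Ndn and Magel2.

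Of 17 compared late germ cell and meiosis genes, 7 were 2-fold lower (41.2%, against 6.33% of all genes), 2 were higher and 8 were neither, and the median was -0.74. All 7 lower genes lie outside the 4 runs. Stra8, which retinoic acid induces before meiosis, read 50.7 in the starting cells, 559.8 after 4OHT, 13.4 in line 21 spheres, 54.9 in line 42 spheres and 3.15 after reversion (-3.74 in log2). It was lowest on the reverted array, and bright only in ES cells with 4OHT. Mael, a protein of the piRNA pathway, read 29.6 in reverted cells, against 133 in starting ES cells, 203 with 4OHT and 5.88 and 14.6 in spheres of lines 21 and 42 (-2.23 in log2). Stk31, a kinase of germ cells, read 101 in starting ES cells, 157 with 4OHT, 12.6 and 34.2 in spheres of lines 21 and 42, and 26.04 in reverted cells (-2.01 in log2), and Gtsf1, a piRNA cofactor, differed by -1.65. For these last 3 genes the ES arrays were the highest, and reverted and both sphere arrays stood below them.

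Sohlh2, a helix-loop-helix factor of early oocytes and spermatogonia, read 94.3 in the starting cells, 70.6 after 4OHT, 10.6 in line 21 spheres, 165 in line 42 spheres and 10.3 after reversion (-3.18 in log2), low in line 21 spheres and reverted cells only. Hormad1 and Dazl differed by -1.18 and -1.10. The 2 higher genes were Tex19.1, which protects germ cells from transposons, at 1.44, and Piwil2, a piRNA-binding protein in the chromosome 14 run, at 1.20. In the early germ cell list, 1 of 14 was higher, Dppa3, and 1 was lower, the receptor Kit, which read 11.2 in reverted cells, against 72.97 in starting ES cells, 13.4 with 4OHT and 213 and 66.5 in spheres of lines 21 and 42 (-2.70 in log2). Kit was low in ES cells with 4OHT as well, so the fall holds against 1 of the ES arrays.

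Of 8 compared oocyte and 2-cell genes, 3 were lower and 1 was higher, with a median of -0.74. The lower genes were Khdc3, Padi6 (-1.998, chromosome 4 run) and Tle6 (-1.03), all components of the maternal complex or its cytoplasmic lattices, and the higher one was Nlrp4f. Zscan4c, a zinc finger gene of the 2-cell state that ES cells express in bursts, read 1058 in starting ES cells, 1347 with 4OHT, 3.59 and 12913 in spheres of lines 21 and 42, and no listed value in reverted cells. It was the only one of 443 genes with a value in starting ES cells and none in reverted cells that reached an intensity of 100 in ES cells. In the reverse direction, 700 genes had a value in reverted cells only, and 0 reached 100.

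Several interferon-inducible genes were far higher on the reverted array than on the other 4. Cxcl10, a chemokine induced by interferon, read 11.8 in the starting cells, 13.4 after 4OHT, 11.96 in line 21 spheres, 13.4 in line 42 spheres and 447 after reversion (5.03 in log2). Gbp2, an interferon-induced GTPase, read 373 in reverted cells, against 29.7 in starting ES cells, 13.2 with 4OHT and 9.63 and 16.7 in spheres of lines 21 and 42 (3.51 in log2). Its paralog Gbp2b read 49.03 in starting ES cells, 29.7 with 4OHT, 22.01 and 26.6 in spheres of lines 21 and 42, and 459.9 in reverted cells (3.10 in log2). For each, the other 4 arrays lay under an intensity of 50. The 2 Gbp genes are close relatives, and a probe of one may read the other.

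Tapbp, which loads peptides onto MHC class I, read 45.4 in the starting cells, 101 after 4OHT, 51.4 in line 21 spheres, 77.5 in line 42 spheres and 384 after reversion (2.95 in log2). Psmb8, a subunit of the immunoproteasome, read 421 in reverted cells, against 80.1 in starting ES cells, 14.2 with 4OHT and 18.3 and 12.7 in spheres of lines 21 and 42 (2.28 in log2). B2m, the light chain of MHC class I, read 461 in starting ES cells, 955 with 4OHT, 484 and 277 in spheres of lines 21 and 42, and 1137 in reverted cells (1.20 in log2), but its level in ES cells with 4OHT was close to that of reverted cells. In the list of interferon response and MHC class I genes, which does not hold Cxcl10 or the Gbp genes, 3 of 20 compared members were higher (15%, against 5.18% of all genes) and 0 lower, with a median of 0.29. Irgm1 and Ccl2 were picked after their values were seen. Irgm1, an interferon-inducible GTPase, read 41.1 in the starting cells, 11.8 after 4OHT, 98.1 in line 21 spheres, 106 in line 42 spheres and 241 after reversion. Ccl2, a chemokine, read 121 in reverted cells, against 19.4 in starting ES cells, 28.4 with 4OHT and 14.9 and 5.29 in spheres of lines 21 and 42, so that both were highest on the reverted array. Of the list's 20 compared members, 17 did not reach 2-fold.

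Upstream sequences of these genes were read from the RefSeq promoter table (GRCm38.p6), 250 bases before the start of the gene. They are shown because each of the genes was highest on the reverted array. That array was not alone for every gene. As described above, B2m stood close to its reverted level on an ES array, and Irgm1 was higher in spheres than in ES cells. Capitals mark GAAANNGAA on either strand, the core of the interferon-stimulated response element without its last base, where N is any base, and every line runs 5′ to 3′ on the strand of its gene.
Cxcl10, minus strand, chr5:92348890-92349139: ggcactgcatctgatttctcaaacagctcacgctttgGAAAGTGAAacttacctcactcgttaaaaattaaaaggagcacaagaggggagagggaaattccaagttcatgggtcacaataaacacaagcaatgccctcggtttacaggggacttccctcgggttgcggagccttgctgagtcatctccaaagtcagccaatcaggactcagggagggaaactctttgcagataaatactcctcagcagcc
Gbp2, plus strand, chr3:142620413-142620662: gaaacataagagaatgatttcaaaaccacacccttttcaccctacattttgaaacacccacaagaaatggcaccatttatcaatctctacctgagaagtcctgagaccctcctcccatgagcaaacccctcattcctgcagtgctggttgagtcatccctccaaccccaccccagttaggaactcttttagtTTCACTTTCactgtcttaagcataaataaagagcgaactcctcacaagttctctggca
Gbp2b, plus strand, chr3:142594597-142594846: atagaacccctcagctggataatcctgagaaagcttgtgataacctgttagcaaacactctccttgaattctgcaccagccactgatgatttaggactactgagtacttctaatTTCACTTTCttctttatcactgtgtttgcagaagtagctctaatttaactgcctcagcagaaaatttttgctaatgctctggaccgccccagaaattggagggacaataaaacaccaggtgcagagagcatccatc
B2m, plus strand, chr2:122147437-122147686: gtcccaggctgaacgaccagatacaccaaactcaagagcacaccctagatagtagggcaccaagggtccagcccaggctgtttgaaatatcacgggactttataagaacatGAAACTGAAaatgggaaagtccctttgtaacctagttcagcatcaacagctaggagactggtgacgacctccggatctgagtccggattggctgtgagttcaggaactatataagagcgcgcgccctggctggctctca
These letters were found once in each of these and 2 times in Irgm1, and not in Psmb8 or Tapbp, so 5 of 7 genes held them. Ccl2 has no entry in the table. Among all 32851 windows of this length, 2342 (7.13%) held at least 1 match, and the motif can overlap the next one. A second motif, the gamma-activated site core TTCNNNGAA, was found in Psmb8 only, and in 7.02% of all windows. The genes were chosen after their values were seen, and a match describes letters in the window, with no measurement of binding.

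Both measured metallothioneins, the zinc- and copper-binding proteins Mt1 and Mt2, were lower. Mt1 read 16500.0 in starting ES cells, 45109.6 with 4OHT, 2511 and 13809 in spheres of lines 21 and 42, and 1155 in reverted cells (-3.93 in log2). Mt2 read 22334 in the starting cells, 46423 after 4OHT, 2777 in line 21 spheres, 20191 in line 42 spheres and 2565 after reversion (-3.22 in log2). The reverted array was the lowest for both, with line 21 spheres next, and line 42 spheres near the starting ES cells. ES cells with 4OHT stood above starting ES cells by 1.31 and 0.92, so the difference of reverted cells from that array is larger. The 2 genes are neighbours on chromosome 8, outside the 4 runs. Their upstream windows are shown with the metal response element core in capitals, TGCACNC or TGCGCNC on either strand.
Mt1, plus strand, chr8:94178839-94179088: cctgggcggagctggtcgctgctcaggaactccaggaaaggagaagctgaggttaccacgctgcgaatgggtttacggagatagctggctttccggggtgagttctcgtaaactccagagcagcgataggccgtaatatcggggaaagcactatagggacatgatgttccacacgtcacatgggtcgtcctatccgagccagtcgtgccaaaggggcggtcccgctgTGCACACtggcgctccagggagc
Mt2, plus strand, chr8:94172368-94172617: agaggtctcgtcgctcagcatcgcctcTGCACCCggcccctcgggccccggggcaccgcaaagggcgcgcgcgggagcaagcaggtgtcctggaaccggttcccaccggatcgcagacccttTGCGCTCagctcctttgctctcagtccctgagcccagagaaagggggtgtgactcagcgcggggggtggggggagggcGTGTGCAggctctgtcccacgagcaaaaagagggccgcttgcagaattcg
Mt1 held 1 match and Mt2 held 3. At least 1 match of the first form occurs in 10.4% of all windows and of the second in 12.5%, and 2 matches of the first form, as in Mt2, in 1.18%. In the list of oxidative stress and glutathione genes, which holds both, 6 of 28 were lower and 4 were higher. Gstm2 and Gstm5, glutathione transferases that were high in spheres, differed by 1.67 and 1.23.

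**Figure D5:**
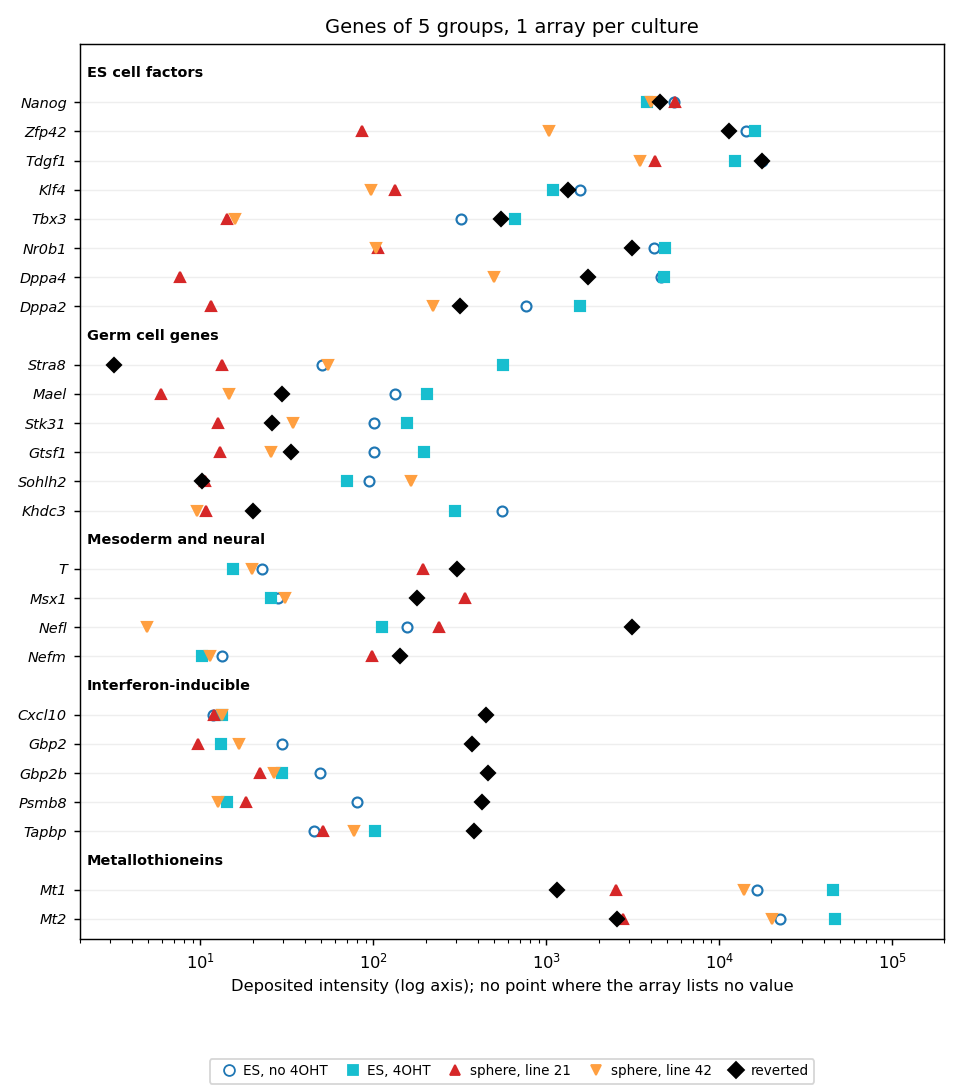
Deposited intensity (x axis, log) of 25 genes in 5 groups (y axis) on the 5 arrays, 1 symbol per array. Reverted cells (black) sit with the ES arrays for Nanog, Zfp42, Tdgf1, Klf4, Tbx3 and Nr0b1, between ES cells and line 21 spheres for Dppa4 and Dppa2, and alone on the right for Cxcl10, Gbp2, Gbp2b, Psmb8 and Tapbp.

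Some lineage genes were higher. Of 12 compared mesoderm markers, 4 were 2-fold higher (33.3%, against 5.18% of all genes) and 0 lower, with a median of 0.74. The list's median intensity in starting ES cells was 28.1. Members below the filter there entered only through the reverted array, which favours higher counts and a positive median. T (brachyury), the T-box factor of the primitive streak, read 305 in reverted cells, against 22.6 in starting ES cells, 15.4 with 4OHT and 193 and 19.9 in spheres of lines 21 and 42 (3.60 in log2). Msx1, a homeobox target of BMP signalling, read 28.2 in starting ES cells, 25.7 with 4OHT, 337 and 30.9 in spheres of lines 21 and 42, and 178 in reverted cells (2.51 in log2). Both were high in line 21 spheres and reverted cells and at the ES level in line 42 spheres. Msx2 and Eomes differed by 1.80 and 1.05. The summed intensity of the mesoderm list was 1676 in reverted cells and 776 in starting ES cells.

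In neuroectoderm, 3 of 12 were higher and 3 lower. Outside the 4 runs, 1 was higher and 3 were lower, with a median of -0.33. Nefl read 156 in the starting cells, 112 after 4OHT, 239 in line 21 spheres, 4.92 in line 42 spheres and 3121 after reversion (4.22 in log2), and was highest on the reverted array and lowest in line 42 spheres. Nes, an intermediate filament of neural progenitors, read 223 in reverted cells, against 49.8 in starting ES cells, 45.5 with 4OHT and 284 and 81.3 in spheres of lines 21 and 42 (2.04 in log2). The lower ones were Pax6 (-2.08), Tubb3 (-1.22) and Neurod1 (-1.002). Primitive and visceral endoderm had 3 of 8 higher and 1 lower, and trophectoderm 4 of 8 higher and 1 lower, with Gata2, Gata3 and Tead4 under an intensity of 50 on both arrays. The 2 lists had median intensities of 21.7 and 16.7 in starting ES cells, so the filter favours their higher counts too. Of 33 Hox genes in the list, 7 could be compared and 0 were 2-fold apart. Among 22 Wnt pathway genes, 3 were higher: T, Wnt4 and Wnt6 (2.23).

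Some members of the marker lists of other cell types differed too. Of 21 compared fibroblast markers of a list of 32, 7 were 2-fold higher (33.3%, against 5.18% of all genes) and 1, Thy1, was lower, with a median of 0.73. The list's median intensity in starting ES cells was 31.6, near the filter. Members below the filter there entered only through the reverted array, which favours higher counts. The summed intensity of the list was 4425 in reverted cells, 2422 and 2073 in the ES arrays, and 1911 and 1238 in the spheres. Of the collagens that define fibroblasts, Col1a1 read 18.6 in starting ES cells, 24.4 with 4OHT, 17.5 and 17.01 in spheres of lines 21 and 42, and 36.03 in reverted cells (0.82 in log2), and Col3a1 read 25.9 in the starting cells, 24.5 after 4OHT, 19.8 in line 21 spheres, 10.02 in line 42 spheres and 29.7 after reversion (0.09 in log2). Both were dim on all arrays. Col1a2 was above the filter on all arrays and read 102 in reverted cells, against 49.99 in starting ES cells, 53.5 with 4OHT and 101 and 41.96 in spheres of lines 21 and 42 (0.92 in log2), close to its level in line 21 spheres. Postn, Lum and Dcn, further defining markers, read 8.67, 24.1 and 20.3 in reverted cells. The part of fibroblast RNA in the higher matrix and interferon genes was not tested.

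The list's largest differences were in other genes. Besides S100a4 they were Ccn1, a matricellular protein, at 2.41, Col5a2 at 2.09, and Tagln, an actin-binding protein, which read 148 in starting ES cells, 82.7 with 4OHT, 16 and 36.01 in spheres of lines 21 and 42, and 665 in reverted cells (2.06 in log2). In the matrix list, 6 of 20 were higher and 0 lower, with a median of 0.47. For OP9 stroma and adipocytes, 2 of 5 compared markers were higher, Ccl2 and the adhesion molecule Vcam1. The median intensity of this list in starting ES cells was 9.66, so the same limit of the filter holds. The summed intensity of that list was 512 in reverted cells and 429.6 in starting ES cells. It was 619.7 in ES cells with 4OHT, and 1246 and 609 in spheres of lines 21 and 42. For blood and endothelium, 1 of 9 was higher and 2 were lower.

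Of 22 compared genes of the Akt pathway, 2 were higher and 3 lower, and the 3 lower ones, Tcl1, Gsk3b and Akt1, all lie in runs. The higher ones were the insulin receptor substrate Irs2, which read 279.7 in the starting cells, 118 after 4OHT, 89.02 in line 21 spheres, 79.8 in line 42 spheres and 702 after reversion (1.23 in log2), and the receptor Igf1r, at 1.08. Both were lower in ES cells with 4OHT than in starting ES cells. Of 19 FoxO targets, genes that Akt restrains through FoxO factors, 5 were higher (26.3%, against 5.18% of all genes) and 0 lower. Cdkn1a, an inhibitor of cyclin-dependent kinases, read 863 in reverted cells, against 199 in starting ES cells, 692 with 4OHT and 981 and 1701 in spheres of lines 21 and 42 (2.01 in log2), and Sgk1, a kinase related to Akt, read 1139 in starting ES cells, 363 with 4OHT, 370.4 and 239 in spheres of lines 21 and 42, and 2454 in reverted cells (1.01 in log2). Cdkn1a was higher than in starting ES cells, near its level in ES cells with 4OHT and below both sphere arrays.

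Of 21 p53 targets, 3 were higher (14.3%), with Cdkn1a among them, and 2 lower (9.52%), against 5.18% and 6.33% of all genes. Pmaip1 (Noxa), a promoter of apoptosis, read 259.8 in the starting cells, 309.6 after 4OHT, 4.72 in line 21 spheres, 12.2 in line 42 spheres and 78.9 after reversion (-1.81 in log2), and Perp, a desmosome protein, differed by 1.59. In the FGF and ERK list, 5 of 22 were higher (22.7%) and 2 lower. Fgfbp1, a carrier of FGFs, read 1988 in reverted cells, against 409.9 in starting ES cells, 291 with 4OHT and 162 and 187 in spheres of lines 21 and 42 (2.18 in log2), highest on the reverted array. Spry2, a feedback inhibitor in the chromosome 14 run, read 154 in starting ES cells, 158 with 4OHT, 138 and 38.6 in spheres of lines 21 and 42, and 499 in reverted cells (1.59 in log2). In the adhesion list, 3 of 23 were higher and 3 lower, including the intermediate filament vimentin (Vim), which read 1869.8 in the starting cells, 1768 after 4OHT, 1597 in line 21 spheres, 2815 in line 42 spheres and 567 after reversion (-1.82 in log2).

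Chromatin regulators were 2-fold apart at shares near those of all compared genes, 5.18% higher and 6.33% lower. Of 20 genes of DNA methylation, 0 were higher and 2 were lower, Dnmt3a and the cytidine deaminase relative Apobec2, with a median of -0.31. Of 25 Polycomb and histone modifiers, 1 was higher and 2 lower, with a median of -0.37. Eed, a core Polycomb subunit, read 2572 in reverted cells, against 5892 in starting ES cells, 5370.4 with 4OHT and 1226 and 1994 in spheres of lines 21 and 42 (-1.29 in log2). Of 31 cell cycle genes, 1 was higher and 3 lower, and of 20 sterol genes 2 were higher. Among 27 genes of endoplasmic reticulum and amino acid stress, 1 was higher and 2 lower, and Nupr1, a stress-induced chromatin protein, read 93.8 in starting ES cells, 1467 with 4OHT, 14.4 and 15.9 in spheres of lines 21 and 42, and 22.6 in reverted cells (-2.10 in log2). Of 5 compared X-linked germ-line genes of the Rhox, Xlr and Mage list, 1 was lower, and of 17 housekeeping genes 1 was higher and 1 lower with a median of 0.03.

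A last set stood apart from all 4 other arrays. In reverted cells, 116 of 10589 genes were at least 2-fold above the highest of the others (1.1%), and 70 were 2-fold below the lowest (0.661%). Trh, the precursor of thyrotropin-releasing hormone, read 3412 in the starting cells, 904 after 4OHT, 862 in line 21 spheres, 54.05 in line 42 spheres and 23511 after reversion (2.68 in log2). Krt28 read 5803 in reverted cells, against 491 in starting ES cells, 1843 with 4OHT and 171 and 2154 in spheres of lines 21 and 42 (3.46 in log2) by its brighter probe, whereas its second, dim probe differed by -1.04. Orc6, a subunit of the origin recognition complex that licenses replication, read 4375 in starting ES cells, 6069 with 4OHT, 3073 and 4087 in spheres of lines 21 and 42, and 186 in reverted cells (-4.65 in log2). The nuclear pore subunit Nup107 read 686 in the starting cells, 470.4 after 4OHT, 326 in line 21 spheres, 248 in line 42 spheres and 32.9 after reversion (-4.44 in log2). Aldh5a1, an enzyme of GABA breakdown, read 32.05 in reverted cells, against 219.5 in starting ES cells, 280.3 with 4OHT and 279 and 401 in spheres of lines 21 and 42 (-2.84 in log2). For these last 3, all 4 other arrays were within about 3-fold of each other and the reverted array alone was low.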

How the data were processed

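RNA of 5 cultures was measured on 1 one-colour array each. Per the labels' protocols, RNA was amplified and hybridised as Toray, the maker, instructs. The deposited values are probe intensity on a linear scale. How they were scanned, background-corrected and normalized, and why cells are empty, is not given in the sources used here. Empty cells (6.09% to 9.11% of 22871 probes) were not filled in, and give no difference.

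Values were taken to log2(intensity + 1), where 1 is the pseudocount, and centred on each array's median over 18884 probes listed on all arrays (shifts of -0.06 to 0.08). Of 16087 array symbols, 12239 were current in the RefSeq table of GRCm38.p6 and 3787 were updated through a synonym, and the table also gave gene order. Each of 16032 genes is its brightest probe. With 1 array a group, genes past 2-fold were counted without a test, and limma was run as an alternative. The counting was run on simulated data with large planted changes and noise of the same size for every gene. That checks the code and says nothing about the error of these arrays.

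The comparison, the 35 gene lists and the alternatives were chosen with earlier results of these data known. Named were the 15 largest differences in each direction among genes reaching 100, list members 2-fold apart with some that were not, the 10 largest against both ES arrays, the 8 largest still 2-fold apart after spheres, the 5 largest on the reverted array alone, and the brightest genes listed on 1 array. Exceptions, beside the 2 stated, are genes named to fill a list or run, such as Igf2. The run rule (41 genes, 0.3) was set after the chromosome medians had been seen. The interferon motif was shortened by 1 base after a first search of the promoters. Python 3.11.15, pandas 2.3.3, R 4.3.3 and limma 3.58.1 were used.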

Additional observations from a re-analysis of the deposited data

How the results depend on the processing

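With 1 array a group, the number of arrays limits every value. No paired analysis was possible because each compared group is 1 array. Of 55 alternatives to counts and shares, 36 stayed within 1.5 times the count, or within the counting interval of the share, and 19 did not. No difference of a named gene at 2-fold and none of the 4 runs kept in reverted cells changed sign under quantile normalization, no centring, a pseudocount of 16 or the mean of a gene's probes, whereas the run of chromosome 12 from Rsad2, at -0.02, read 0.037 under quantile normalization and 0.080 without centring. A change of sign is a loose check for such values. Of the alternatives to list medians, 203 stayed within 0.1 in log2 and 42 did not. Those 42 included 11 without the filter and 11 with it at the 60th percentile. Of the alternatives to differences of named genes and compared list members, 2180 stayed within 0.287 and 88 did not, 69 of them with a pseudocount of 16. Without centring, 21.97% of sphere-high and 20.79% of sphere-low genes were still 2-fold apart the same way. A pseudocount of 16 gave 339 higher genes, shares of 13.09% and 23.02%, and run medians of -0.541 on chromosome 4 and -0.5292 on chromosome 16, since it draws dim genes together. A filter at the 60th percentile, which compares fewer genes, gave 334 higher genes. A threshold of 3-fold gave 162 higher and 204 lower genes, 117 and 142 against both ES arrays, and shares of 11.32% and 14.26%. Choosing sphere genes on line 42 gave 14.31% and 17.71%, and the cause of that change was not tested. Limma on 9889 genes, with the spread of the 2 sphere arrays and 1 residual degree of freedom, called 0 higher and 0 lower genes at an adjusted p of 0.05, where the smallest adjusted p was 0.999, and 146 higher and 162 lower genes at an unadjusted p under 0.05. Limma assumes that each lone array varies as the sphere lines do. After seeing the data, the counts were also taken outside the 4 runs, which gave 379 lower genes, 289 lower against both ES arrays and a sphere-low share of 18.62%. A run threshold of 0.4, also looked at after seeing the data, split the spans into 7 runs on the same 4 chromosomes, with 978 genes, all of them among the 1036 found at 0.3.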
